A study of Arabidopsis thaliana with 30 samples.

Results

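The comparison set *dxo1*/*NTE* seedlings against *dxo1*/*cDXO1* seedlings, both under mock treatment, in 6 of the 30 RNA-seq libraries of the series. Members were chosen by label alone: the 3 mock libraries whose genotype was given as DXO1-N/dxo1 and the 3 mock libraries given as DXO1-C/dxo1. Both lines are *Arabidopsis thaliana* plants of the *dxo1* T-DNA insertion background and differ in the transgene, which in each case was driven by the *DXO1* promoter. The *dxo1*/*NTE* line carried the N-terminal extension of DXO1 (residues 1 to 200) and the *dxo1*/*cDXO1* line the catalytic C-terminal part (residues 201 to 544). Seedlings 5 days old were moved to liquid Murashige and Skoog medium and sampled after 3 h, without ABA for mock. The same lines held for 3 h in 50 µM ABA, the *dxo1* mutant under mock and wild type (WT, Col-0) under mock, each with 3 libraries, were used for comparison. Ranges over all 30 libraries also took in *dxo1* and WT after ABA and the *rnmt1* mutant (*rnmt1-3* in the study) under mock and after ABA, again with 3 libraries each. Which of the independent transgenic lines was sequenced is not given in the sources used here, so that a line effect and a transgene effect cannot be told apart. Libraries came from whole seedlings, in which fewer cells of a type and less RNA per cell cannot be told apart. The labels do not say whether the 3 samples of a group were separate cultures, and p-values therefore measure the spread between these samples.

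DXO1 belongs to the DXO family, whose members remove incomplete or NAD caps from RNA 5′ ends. The plant protein has in addition a long non-catalytic N-terminal extension, which binds and activates RNMT1, the methyltransferase that adds the methyl group of the m7G cap. The cap is bound in the nucleus by the cap-binding complex and in the cytosol by eIF4E, and it protects mRNA from 5′ decay and recruits ribosomes.

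The point at which the constructs part lies inside a coding exon of *DXO1* (AT4G17620). Its longest annotated coding sequence had 1635 bases for 544 residues in 13 coding exons, and 344 residues followed residue 200. The 90 coding bases around the boundary, chr4:9822642-9822731 on the plus strand of TAIR10.1 (RefSeq), are shown with the first codons of the catalytic part in capitals.
DXO1 boundary: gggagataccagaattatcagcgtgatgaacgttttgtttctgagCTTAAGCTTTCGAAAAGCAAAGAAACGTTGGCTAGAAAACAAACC
Reads of *DXO1* reached 222, 269 and 250 CPM (reads of a gene scaled to a common library total) in the *dxo1*/*NTE* mock libraries and 212, 220 and 228 CPM in the *dxo1*/*cDXO1* mock libraries. These ranges overlapped, and the fitted log2 fold change (*dxo1*/*NTE* over *dxo1*/*cDXO1*) was 0.05 ± 0.08 (SE; n = 3 each, edgeR quasi-likelihood test, adjusted p = 0.63). The *dxo1* mutant averaged 21.4 CPM and WT 44.6 CPM, so both lines carried several times the *DXO1* signal of WT. A count per gene cannot say which part of the gene a read came from, and it therefore shows a transgene in both lines without showing which one. The transgenes also differ in coding length, 200 against 344 residues, so that similar reads do not show similar transcript numbers. *RNMT1* (AT3G20650), encoding the partner of the extension, had 28.5, 22.7 and 18.1 CPM in *dxo1*/*NTE* against 15.8, 16.1 and 17.5 CPM in *dxo1*/*cDXO1*. The lines did not overlap, but the difference missed the threshold (log2 fold change 0.38 ± 0.14, adjusted p = 0.056). After ABA, *RNMT1* stood at 35.7, 60.3 and 21.0 CPM in *dxo1*/*NTE* and 14.8, 15.4 and 14.7 CPM in *dxo1*/*cDXO1* (edgeR, adjusted p = 0.00077), with a wide spread among the *dxo1*/*NTE* libraries.

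Roughly equal numbers of genes stood above and below. Of 20135 genes tested, 3041 were higher in *dxo1*/*NTE* (15.1% of those tested) and 3560 were lower (17.7%) at a Benjamini-Hochberg adjusted p under 0.05, and these are termed called genes below. Most of the calls were small: 2134 of the higher and 2119 of the lower genes changed by less than 1.5-fold, and the median absolute log2 fold change of called genes was 0.47. Changes of 4-fold to 8-fold were found at 48 higher and 36 lower genes, and larger ones at 26 higher and 10 lower genes. With the rule that the study used for differentially expressed genes (DEGs), an unadjusted p under 0.05 and a change of more than 2-fold, 435 genes were higher (2.16%) and 462 lower (2.29%), and 814 of these 897 DEGs also passed the adjusted threshold. The 6 libraries held 19216429 to 21902355 counted reads, replicates of a line correlated at 0.990 to 0.992 over log2 CPM, and the median log2 fold change of all genes was 0.01. Since a large share of all genes was called, counts within a gene group are read below against these shares.

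Most genes called under mock kept their direction after ABA. In the 6 libraries from ABA-treated seedlings of the same lines, which share no library with the mock comparison, 18.3% of the 20092 genes tested were higher in *dxo1*/*NTE* and 20.2% were lower. Of the 6547 mock calls tested in both, 6383 (97.5%) had the same direction, 4954 (75.7%) were called in it, and 14 were called the other way. Over all 19726 genes tested in both, called or not, 79.8% had the same direction. Pearson's r of the log2 fold changes was 0.79 over these genes, a description across genes, which are not independent replicates.

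**Figure D1:**
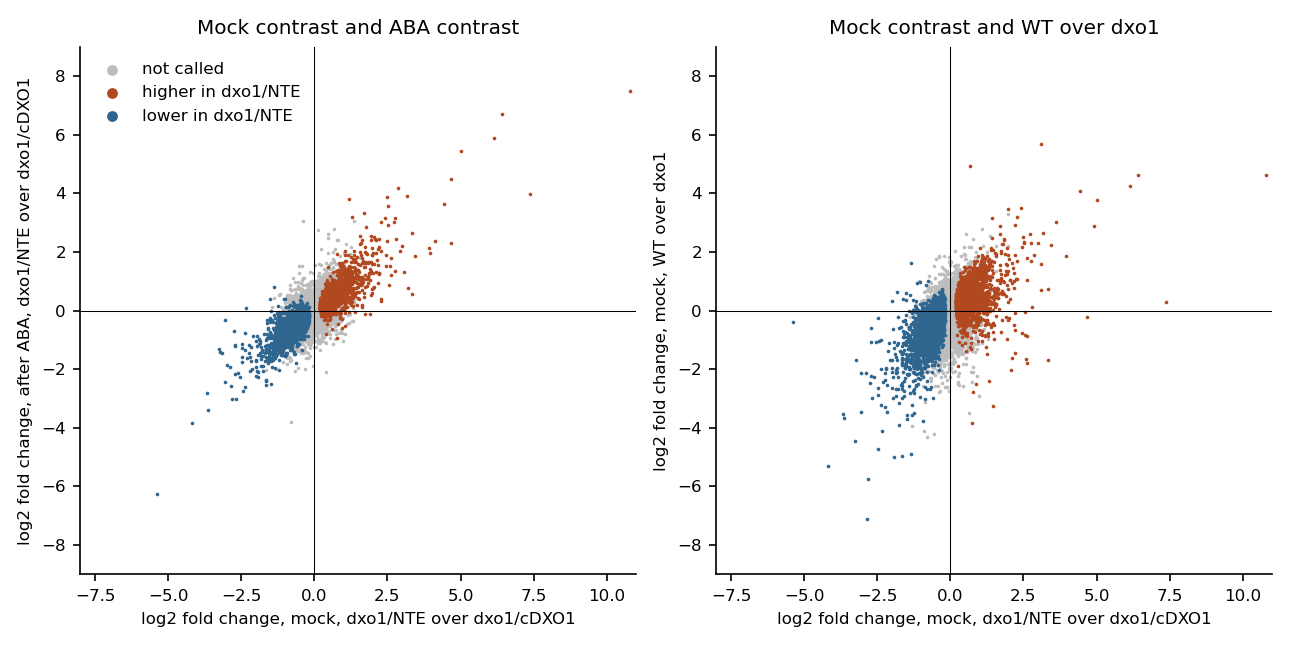
Each point is a gene, with its log2 fold change of dxo1/NTE over dxo1/cDXO1 under mock on the x axis, and on the y axis the same contrast after ABA (left) or WT over dxo1 under mock (right). Genes called under mock are coloured by direction: 97.5% keep their direction on the left and 86.4% on the right, where PR1 and AUF1, at 4.67 and -5.38 on the x axis, lie near 0 on the y axis.

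The direction was also mostly that of WT over the *dxo1* mutant. This contrast again shared no library with the comparison, and 11.8% of its 20007 genes were higher in WT and 13.0% lower (4962 called). Of 6560 mock calls tested in both, 5665 (86.4%) moved the same way, 2865 were called in that direction and 92 in the opposite one. Over all 19844 genes tested in both, 70.8% had the same direction. Among the DEGs lower in *dxo1*/*NTE*, 419 of 442 (94.8%) were also lower in WT than in *dxo1*, and 312 of them were called. Of the DEGs higher in *dxo1*/*NTE*, 316 of 387 (81.7%) were higher in WT, and 142 were called. The WT mock library of replicate 1 weighs on the number of calls: without it 8854 genes were called between WT and *dxo1*, whereas leaving out 1 of the *dxo1* mock libraries of replicates 1, 2 and 3 gave 2281, 2368 and 2700. The share of same-direction genes stayed between 84.3% and 88.9% when any of the 12 libraries was left out.

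The position of each line between *dxo1* and WT can be read gene by gene. At the 1191 genes called between WT and *dxo1* with a difference over 2-fold, a scale was set with *dxo1* at 0 and WT at 1 on log2(CPM + 1). The *dxo1*/*NTE* line had a median position of 0.57 (quartiles 0.39 and 0.74) and was nearer to WT at 711 genes (59.7%). The *dxo1*/*cDXO1* line had a median position of 0.06 (quartiles -0.08 and 0.20) and was nearer to WT at 68 genes (5.71%), or at 3.15% without the WT library of replicate 3. At these genes *dxo1*/*cDXO1* was thus close to the mutant, and *dxo1*/*NTE* stood a little over midway towards WT.

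The genes that stood furthest above were plant defensins, small secreted antifungal peptides that mark the jasmonate and ethylene branch of defence. *PDF1.3* (AT2G26010) had 12.3, 14.4 and 7.85 CPM in *dxo1*/*NTE* and no read in any *dxo1*/*cDXO1* mock library. Set against a floor of 3 counts in each of those libraries, *PDF1.3* was at least 75.3-fold higher in *dxo1*/*NTE* (adjusted p = 9.8e-07). *PDF1.2* (AT5G44420) had 10.6, 9.84 and 6.35 CPM against 0, 0.147 and 0.613 CPM in *dxo1*/*cDXO1*, a ratio of summed reads of 35.5 with an exact 95% Poisson interval of 21.3 to 63.8, which covers counting error only. For *PDF1.2b* (AT2G26020) the ratio was 86.1 (29.1 to 420.0), from 263 against 3 reads, and for *PDF1.2c* (AT5G44430) it was 99.6 (38.6 to 367.0), from 406 against 4 reads. All 4 genes were also higher in WT than in *dxo1*: *PDF1.3* averaged 0.337 CPM in *dxo1* and 8.07 CPM in WT. The coding sequences of these genes differ pairwise in 13 to 21 of 243 bases, so that reads may have been divided among them by the counting, and their individual levels are uncertain.

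The promoters of *PDF1.2* and *PDF1.2b* are shown because ethylene-response factors bind the GCC box, GCCGCC, which a search of both strands found in them (capitals). The windows run from 250 bases before to 50 bases after the annotated start, in TAIR10.1 from RefSeq, at chr5:17907589-17907888 (minus strand) and chr2:11088873-11089172 (plus strand).
PDF1.2 promoter: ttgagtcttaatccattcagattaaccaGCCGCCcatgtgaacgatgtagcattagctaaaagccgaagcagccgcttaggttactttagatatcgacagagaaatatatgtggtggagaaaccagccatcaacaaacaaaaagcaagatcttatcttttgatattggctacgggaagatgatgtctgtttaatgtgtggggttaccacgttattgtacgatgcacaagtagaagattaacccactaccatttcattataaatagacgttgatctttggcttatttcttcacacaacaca
PDF1.2b promoter: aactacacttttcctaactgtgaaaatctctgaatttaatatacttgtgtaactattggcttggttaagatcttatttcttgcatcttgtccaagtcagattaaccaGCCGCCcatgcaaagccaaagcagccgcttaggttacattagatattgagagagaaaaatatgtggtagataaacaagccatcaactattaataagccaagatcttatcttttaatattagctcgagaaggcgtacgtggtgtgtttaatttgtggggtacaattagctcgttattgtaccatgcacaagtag
The letters GCCGCC occurred in 706 of 27443 such windows of protein-coding genes (2.57%) and in 3 of the 13 windows of the *PDF* family. The windows of *PDF1.2c* and *PDF1.3* did not hold them. Of the 11 tested defensin genes 7 were higher (63.6%, against 15.1% of all genes) and 2 lower (18.2%, against 17.7%). The median log2 fold change was 1.47 against 0.01 over all genes, and it was the same with *PDF1.3* at its bound. *PDF1.2*, *PDF1.2b*, *PDF1.2c* and *PDF1.3* had almost no reads in *dxo1*/*cDXO1*, passed the filter on low counts through *dxo1*/*NTE* and so had to differ, and the count and median describe the tested members only. The lower members, *PDF2.1* (log2 fold change -0.32) and *LCR68* (-0.46), changed little.

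Several defence genes of the salicylate branch stood higher in the same line. *PR1* (AT2G14610), the classical marker of salicylate signalling, had 4.44, 4.94 and 4.75 CPM in *dxo1*/*NTE* against 0.0985, 0.0982 and 0.306 CPM in *dxo1*/*cDXO1* (summed ratio 28.4, interval 15.2 to 59.8, adjusted p = 2.4e-06). In *dxo1* *PR1* averaged 2.1 CPM and in WT 1.76 CPM, with no call between them (adjusted p = 0.85). *LURP1* (AT2G14560), required for defence against a downy mildew in *Arabidopsis*, had 5.42, 5.36 and 8.86 CPM against 0.148, 0.491 and 1.17 CPM. *HR4* (AT3G50480), a homologue of the RPW8 mildew resistance genes, had 122, 114 and 119 CPM against 25.2, 24.7 and 34.1 CPM (log2 fold change 1.97 ± 0.10, adjusted p = 1.8e-07), and it was also higher in WT than in *dxo1* (0.73). For *PR1*, *LURP1* and *HR4* alike the lines were apart in every library. Over the list of 14 tested salicylate and defence genes, 9 were higher (64.3%, against 15.1% of all genes) and 2 lower (14.3%, against 17.7%). The median log2 fold change was 1.94. The defensins *LCR67*, *PDF1.2*, *PDF1.2b*, *PDF1.2c* and *PDF1.3* make up 5 of the 9 higher genes. The count and median are therefore not those of the salicylate branch alone. Here too, these *PDF1.2* and *PDF1.3* genes and *PR1* passed the filter through *dxo1*/*NTE*, where they are high. The lower ones were *PAD4* (-0.45), a regulator of basal resistance, and *PAD3* (-0.78), the last enzyme of camalexin synthesis, whereas *WRKY38* (3.06) and *WRKY70* (1.16), both transcription factors of this branch, were higher, the libraries of *WRKY70* overlapping. In WT against *dxo1* the same list had 4 higher and 4 lower calls of 13 tested, with a median log2 fold change of -0.24.

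**Figure D2:**
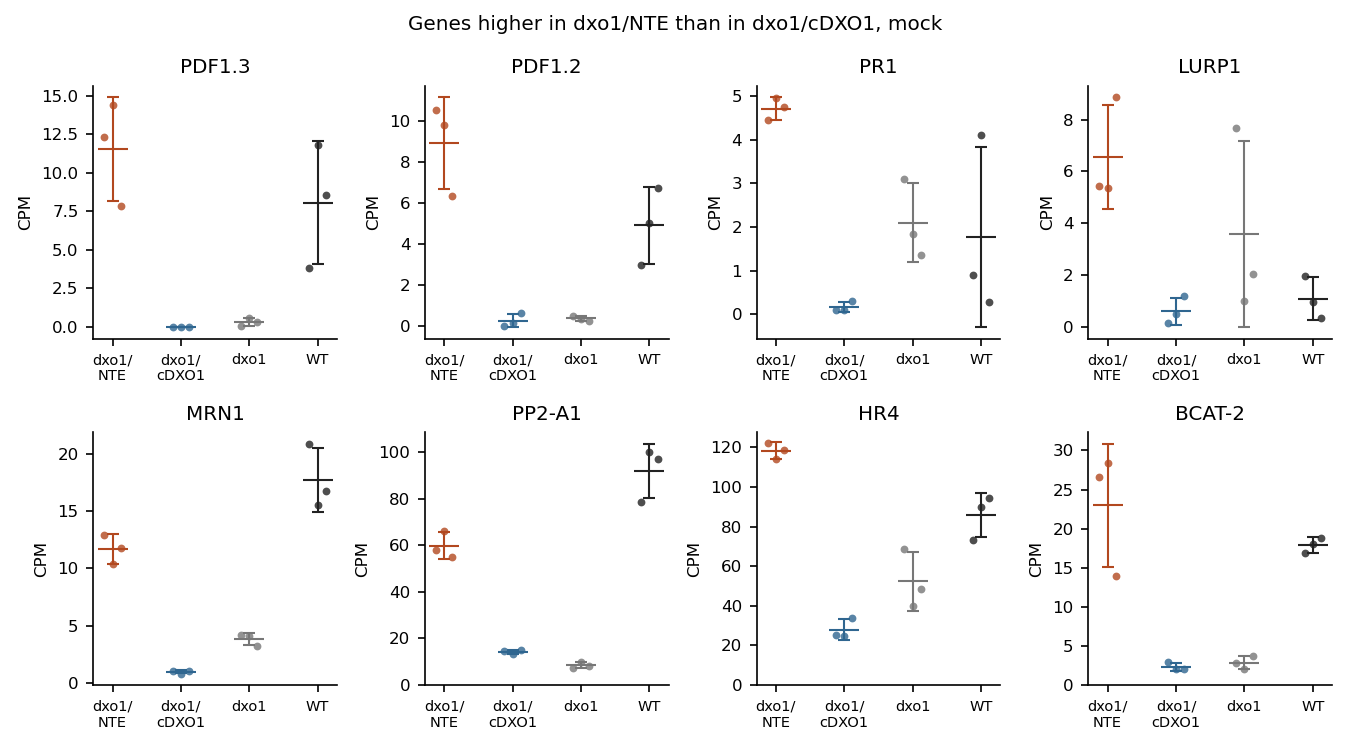
CPM of 8 genes higher in dxo1/NTE, in the 3 mock libraries (points) of dxo1/NTE, dxo1/cDXO1, dxo1 and WT, with the mean (bar) and SD (whiskers). The dxo1/NTE libraries lie above the dxo1/cDXO1 libraries in every panel, and dxo1 lies near dxo1/cDXO1 for PDF1.3 and PP2-A1 but near WT for PR1.

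Other genes with a large or precise increase had separate functions. *MRN1* (AT5G42600), marneral synthase of a triterpene gene cluster, had 12.9, 10.4 and 11.7 CPM in *dxo1*/*NTE* and 1.08, 0.835 and 1.02 CPM in *dxo1*/*cDXO1* (log2 fold change 3.46 ± 0.20, adjusted p = 2.6e-07). *PP2-A1* (AT4G19840), a phloem lectin, had 58.1, 66.3 and 55.1 CPM against 14.4, 13.2 and 15.1 CPM (1.96 ± 0.10, adjusted p = 9.7e-08). *GSTF2* (AT4G02520), a glutathione transferase, had 47.5, 46.3 and 41.1 CPM against 11.2, 10.4 and 12.8 CPM, and AT1G67865, of unknown function, 18.5, 19.8 and 16.8 CPM against 4.53, 4.07 and 4.29 CPM. *PP2-A1* and *GSTF2* each overlap a neighbouring gene in the annotation, and whether the counting used strand is not given in the sources used here. *MBP2* (AT1G52030), a myrosinase-binding protein, had 4.74, 3.64 and 2.65 CPM against 0.0985, 0.0491 and 0.51 CPM. *ELI3-2* (AT4G37990), an alcohol dehydrogenase induced by elicitors, and AT3G29970, encoding a B12D protein, varied several-fold among the *dxo1*/*NTE* libraries (6.17, 1.72 and 1.78 CPM, and 0.493, 2.86 and 4.20 CPM).

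Genes that respond to darkness and sugar shortage were higher together. *BCAT-2* (AT1G10070), an enzyme of branched-chain amino acid breakdown, had 26.6, 28.4 and 13.97 CPM in *dxo1*/*NTE* and 2.91, 2.11 and 1.99 CPM in *dxo1*/*cDXO1* (log2 fold change 3.18 ± 0.26, adjusted p = 2.8e-06). *DIN11* (AT3G49620), a dark-inducible dioxygenase, had 98.8, 63.9 and 69.2 CPM against 12.5, 9.43 and 7.40 CPM, and *SEN1* (AT4G35770), a senescence and darkness marker, 145, 202 and 125 CPM against 14.8, 25.2 and 25.4 CPM. *ASN1* (AT3G47340), the dark-induced asparagine synthetase, was also higher (1.71 ± 0.32). Of 10 tested genes of the list 7 were higher (70%, against 15.1% of all genes) and none lower. The median log2 fold change was 0.72, and all 10 were higher in WT than in *dxo1*.

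The core genes of the response to low oxygen were higher on average, but they varied among replicates of both lines. *ADH1* (AT1G77120), the fermentative alcohol dehydrogenase, had 193, 734 and 1220 CPM in *dxo1*/*NTE* and 23.5, 19.7 and 206 CPM in *dxo1*/*cDXO1*, and the ranges overlapped (log2 fold change 3.01 ± 0.76, adjusted p = 0.0087). The summed level of the 16 genes ran from 690 to 2811 CPM in *dxo1*/*NTE* and from 187 to 995 CPM in *dxo1*/*cDXO1* (exact permutation test, two-sided, p = 0.2; 3 against 3 cannot go below 0.1). Of the 16 genes, all tested, 5 were higher (31.2%, against 15.1% of all genes) and none lower. Without the *dxo1*/*cDXO1* library of replicate 3, the highest of its group, 15 were higher, in a fit that called 2712 of all genes higher. The summed level ran from 275 to 1654 CPM in *dxo1* and from 905 to 4243 CPM in WT, a spread of the same kind.

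**Figure D3:**
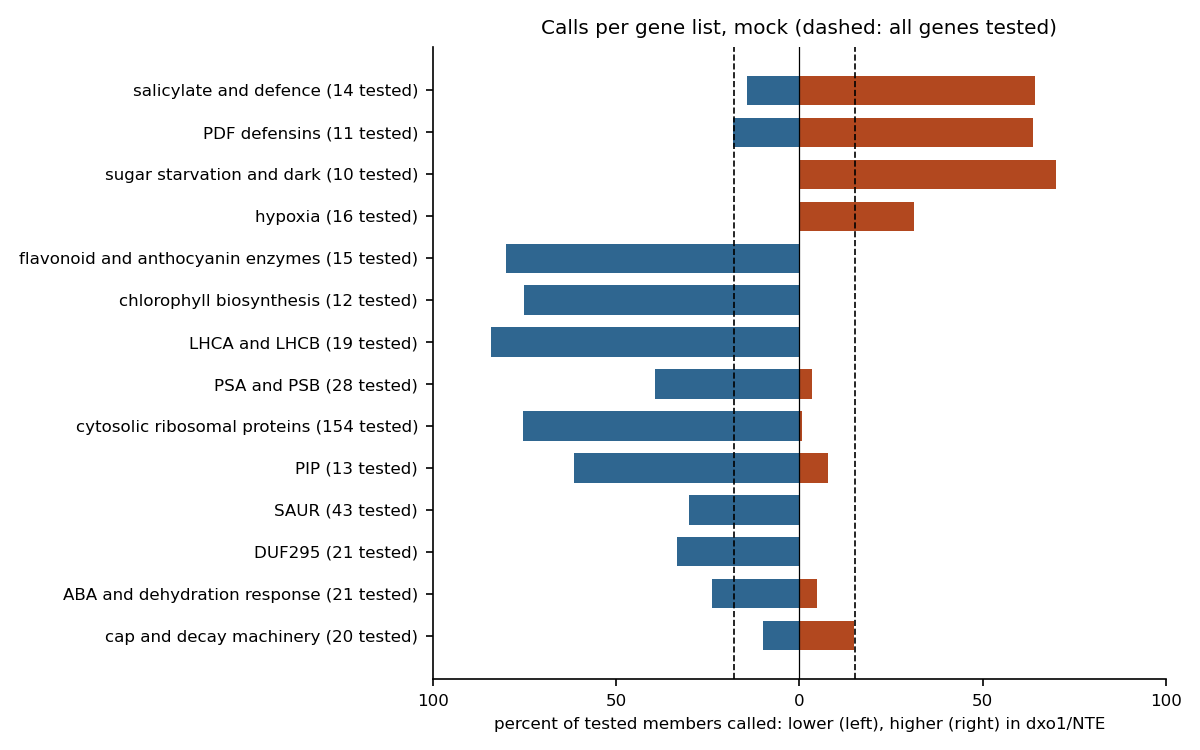
Percent of the tested members of 14 gene lists called lower (left of 0) or higher (right of 0) in dxo1/NTE than in dxo1/cDXO1 under mock, with dashed lines at the shares over all genes tested, 17.7% lower and 15.1% higher. Light-harvesting, flavonoid, chlorophyll and cytosolic ribosomal protein genes pass the lower line by the widest margins, and starvation and defence genes the higher line.

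The gene furthest below was *AUF1* (AT1G78100), an F-box protein linked to auxin transport and cytokinin response. It had 1.33, 1.98 and 0.0913 CPM in *dxo1*/*NTE* and 37.5, 43.7 and 46.8 CPM in *dxo1*/*cDXO1* (log2 fold change -5.38 ± 0.33, adjusted p = 3.6e-07). *AUF1* averaged 45.9 CPM in *dxo1*, 35.4 CPM in *rnmt1-3* and 34.3 CPM in WT under mock, and after ABA it was again near 0 in *dxo1*/*NTE* (0.105, 0.438 and 0.216 CPM) against 20.6, 19.5 and 18.1 CPM in *dxo1*/*cDXO1*. All 6 *dxo1*/*NTE* libraries lay below all 24 others, by at least 2.04 on the log2(CPM + 1) scale. Of the 6 tested neighbours on chromosome 1, picked after the value of *AUF1* was seen, only AT1G78110 was called (log2 fold change -0.41), and *TPPB* and *RAP2.4* stood at -0.18 and -0.10. The position of the transgenes in the genome is not given in the sources used here, and its part in the loss was not tested.

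Several genes of the DUF295 family, F-box-like proteins expanded in the Brassicaceae, were nearly silent in *dxo1*/*NTE* and WT and expressed in *dxo1*/*cDXO1* and *dxo1*. AT5G53240 had 0.345, 0.052 and 0.0913 CPM in *dxo1*/*NTE* and 2.22, 2.90 and 3.42 CPM in *dxo1*/*cDXO1* (summed reads 17.4 times higher in *dxo1*/*cDXO1*, interval 9.25 to 37.0). It averaged 1.70 CPM in *dxo1* and 0.0354 CPM in WT. Its neighbour AT5G53230 had 0.641, 0.104 and 0.457 CPM against 4.53, 4.52 and 5.10 CPM, and AT5G55270, on the same chromosome, 0.937, 0.416 and 0.639 CPM against 4.88, 3.98 and 4.24 CPM. Of 69 family members 21 passed the filter on low counts. Of these, 7 were lower (33.3%, against 17.7% of all genes) and none higher (median log2 fold change -0.65). Members that passed the filter only through the line where they are high had to differ. Without the *dxo1*/*cDXO1* library of replicate 3 the count was 4. The call of AT5G60060 was lost when any of 4 single libraries was left out.

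The promoter window of AT5G53240 (chr5:21601231-21601530, plus strand, TAIR10.1, RefSeq) is shown because the telo box, AAACCCTA on either strand (capitals), recurred in this family.
AT5G53240 promoter: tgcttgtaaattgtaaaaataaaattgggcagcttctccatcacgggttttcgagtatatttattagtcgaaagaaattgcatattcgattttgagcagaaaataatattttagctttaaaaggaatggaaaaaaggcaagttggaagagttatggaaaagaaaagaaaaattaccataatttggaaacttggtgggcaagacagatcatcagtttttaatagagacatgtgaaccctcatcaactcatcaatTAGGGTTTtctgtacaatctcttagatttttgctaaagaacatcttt
The letters were present in 22 of the 69 DUF295 windows (31.9%), among them those of AT5G53230, AT5G53240 and AT5G55270, against 1707 of 27443 windows of all protein-coding genes (6.22%). Among tested members they were in 3 of 7 that were lower and 2 of 14 that were not called.

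Among primary microRNA transcripts, *MIR158a* (AT3G10745) stood lowest. It had 0.444, 0.468 and 0.731 CPM in *dxo1*/*NTE* and 3.60, 4.12 and 3.42 CPM in *dxo1*/*cDXO1* (log2 fold change -2.85 ± 0.30, adjusted p = 1.8e-05), with 3.48 CPM in *dxo1* and 0.0177 CPM in WT. The annotated precursor lies at chr3:3366331-3366430 on the minus strand (TAIR10.1, RefSeq), and it is printed with the mature 3′ arm in capitals, followed by that mature miRNA with its seed in capitals.
MIR158a precursor: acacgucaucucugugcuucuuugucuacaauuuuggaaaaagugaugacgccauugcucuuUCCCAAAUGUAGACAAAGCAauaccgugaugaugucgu
miR158a: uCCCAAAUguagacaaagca
Libraries of polyadenylated RNA count the unprocessed transcript, so that the level of the mature miRNA was not measured. Of 325 annotated microRNA genes 21 were tested. *MIR158a*, *MIR156c* (-1.25) and *MIR414* (-0.49) were lower (14.3%, against 17.7% of all genes). *MIR5642a* (0.92) was higher (4.76%, against 15.1%). The call of *MIR414* was lost when any of 4 single libraries was left out, and that of *MIR156c* without the *dxo1*/*cDXO1* library of replicate 1.

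Flavonoid and anthocyanin enzymes were lower as a group. *DFR* (AT5G42800), dihydroflavonol reductase, had 5.23, 5.36 and 6.07 CPM in *dxo1*/*NTE* and 104, 58.0 and 35.9 CPM in *dxo1*/*cDXO1* (log2 fold change -3.69 ± 0.32, adjusted p = 4.1e-06). *TT4* (AT5G13930), chalcone synthase at the head of the pathway, had 149, 155 and 162 CPM against 674, 562 and 480 CPM (edgeR, adjusted p = 2.4e-07). *LDOX* (AT4G22880), the anthocyanidin synthase, had 4.00, 2.29 and 4.70 CPM against 31.5, 15.4 and 9.65 CPM, and *AT5MAT* (AT3G29590), a malonyltransferase of anthocyanins, 0.74, 0.52 and 1.05 CPM against 4.88, 2.55 and 2.25 CPM. The *dxo1*/*NTE* libraries lay below every *dxo1*/*cDXO1* library for each of these enzymes. Of 15 tested enzymes 12 were lower (80%, against 17.7% of all genes) and none higher (median log2 fold change -1.24). In WT, 12 were lower than in *dxo1* as well. The 3 that were not called, *PAL1*, *C4H* and *4CL3*, act before chalcone synthase, in phenylpropanoid metabolism, and had log2 fold changes of -0.01, -0.02 and -0.03. Of 9 tested regulators 2 were lower (22.2%, against 17.7% of all genes) and none higher, with a median log2 fold change of -0.01. The lower ones were *TT8*, which activates the late enzymes (-1.13), and *MYBL2*, which represses them (-1.08). The call of *TT8* was lost without the *dxo1*/*NTE* library of replicate 2 or the *dxo1*/*cDXO1* library of replicate 1.

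**Figure D4:**
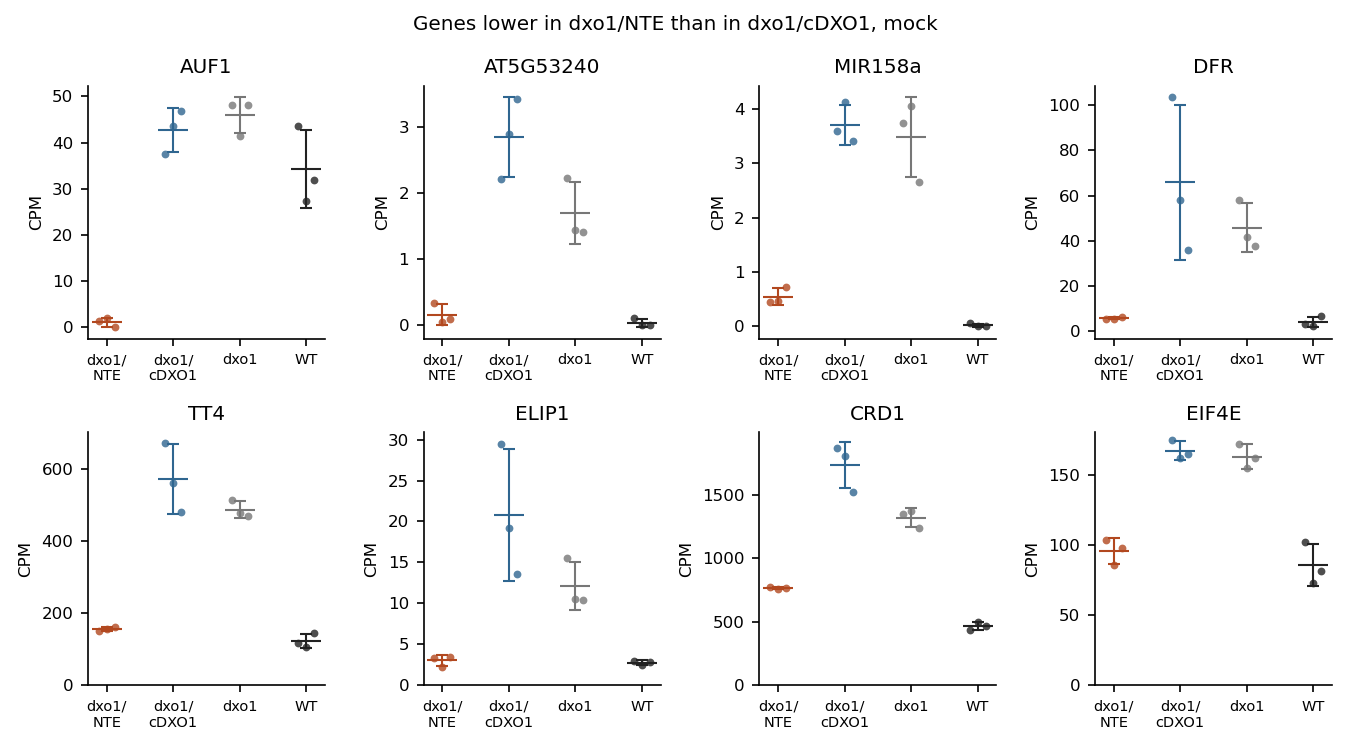
CPM of 8 genes lower in dxo1/NTE, in the 3 mock libraries (points) of dxo1/NTE, dxo1/cDXO1, dxo1 and WT, with the mean (bar) and SD (whiskers). For all but AUF1 the dxo1/NTE libraries lie on the side of WT; AUF1 is near 0 in dxo1/NTE alone.

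Genes of chlorophyll synthesis and light harvesting were lower, and here the *dxo1*/*cDXO1* line stood above *dxo1* and WT. *CRD1* (AT3G56940), a subunit of the cyclase of chlorophyll synthesis, had 770, 759 and 766 CPM in *dxo1*/*NTE* against 1866, 1806 and 1524 CPM in *dxo1*/*cDXO1* (log2 fold change -1.29 ± 0.09, adjusted p = 9.8e-07). *HEMA1* (AT1G58290), glutamyl-tRNA reductase, which controls entry into tetrapyrrole synthesis, had 131, 119 and 116 CPM against 265, 221 and 193 CPM. Of 12 tested genes of the pathway 9 were lower (75%, against 17.7% of all genes) and none higher (median log2 fold change -0.41). Their summed level was 3218 to 3437 CPM in *dxo1*/*NTE* and 4451 to 5268 CPM in *dxo1*/*cDXO1*, with 4068 to 4384 CPM in *dxo1* and 3204 to 3511 CPM in WT. Of 19 antenna genes of the *LHCA* and *LHCB* families 16 were lower (84.2%, against 17.7% of all genes) and none higher (-0.59), led by *LHCB2.2* (186, 113 and 104 CPM against 598, 415 and 337 CPM) and *LHCB2.1*. Their summed level was 24150 to 26110 CPM in *dxo1*/*NTE* and 30000 to 36310 CPM in *dxo1*/*cDXO1*, with 24160 to 25690 CPM in *dxo1* and 25050 to 28490 CPM in WT, while *rnmt1-3*, at 27400 to 35390 CPM, overlapped *dxo1*/*cDXO1*. The summed levels of the antenna genes in WT and *dxo1* thus overlapped. Gene by gene, 3 were higher and 6 lower in WT than in *dxo1*. Their median log2 fold change there was -0.25, in the direction of the mock comparison of the 2 lines. *ELIP1* (AT3G22840), a light-stress protein of the same superfamily, had 3.35, 2.24 and 3.47 CPM against 29.5, 19.1 and 13.6 CPM. Copies of *LHCB2* and of the *CAB* genes are near-identical, and reads may have been divided among them.

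The seedlings' leaf markers moved with these genes. Of 7 tested mesophyll markers 6 were lower (85.7%, against 17.7% of all genes). Among them were *RCA*, Rubisco activase (-0.80), and *SBPASE* of the Calvin cycle (-0.61), while *RBCS1A* was not called (-0.11). They summed to 17560 to 18020 CPM in *dxo1*/*NTE* and 19170 to 22640 CPM in *dxo1*/*cDXO1*, and 2 of the 7 are antenna genes. Of 7 root hair markers 1 was higher and 1 lower (14.3% each). Of 6 markers of root stele and endodermis 1 was higher (16.7%) and 2 lower (33.3%). The 9 seed storage genes were not tested and summed to 0.156 to 6.21 CPM against 1.12 to 1.62 CPM. The part of a different share of leaf tissue in the results above was not tested.

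Most genes annotated to the cytosolic ribosome were lower, by a small amount each. Of 154 tested genes 116 were lower (75.3%), 37 were not called, *RPL3B* was higher (1.23 ± 0.09), and the median log2 fold change was -0.39. The list follows the annotation and also holds genes known for organellar ribosomes, such as *MRPL11* (-0.65), *NFD3* (-0.28) and *EMB3136* (-0.39). They took 27710 to 32060 CPM in *dxo1*/*NTE*, 37360 to 40040 CPM in *dxo1*/*cDXO1*, 38440 to 40660 CPM in *dxo1* and 26970 to 29530 CPM in WT (exact permutation test between the first pair, two-sided, p = 0.1, the smallest that 3 against 3 allows). AT4G17390, of the L15e family, had 425, 394 and 462 CPM in *dxo1*/*NTE* against 900, 823 and 833 CPM in *dxo1*/*cDXO1* (-1.11 ± 0.08, adjusted p = 1.6e-06), and AT1G57860, another gene of the list, 140, 122 and 147 CPM against 295, 269 and 278 CPM. These genes occur in families of close copies, so that the level of a single copy is less certain than the sum. The letters AAACCCTA were in 81 of 167 ribosomal protein windows (48.5%) against 6.22% of all protein-coding genes, and the letters TGGGCC, searched the same way and free to lie beside them, in 110 (65.9%) against 15.5%. Among tested members AAACCCTA was in 57 of the 116 that were lower (49.1%) and in 17 of the 37 that were not called (45.9%).

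**Figure D5:**
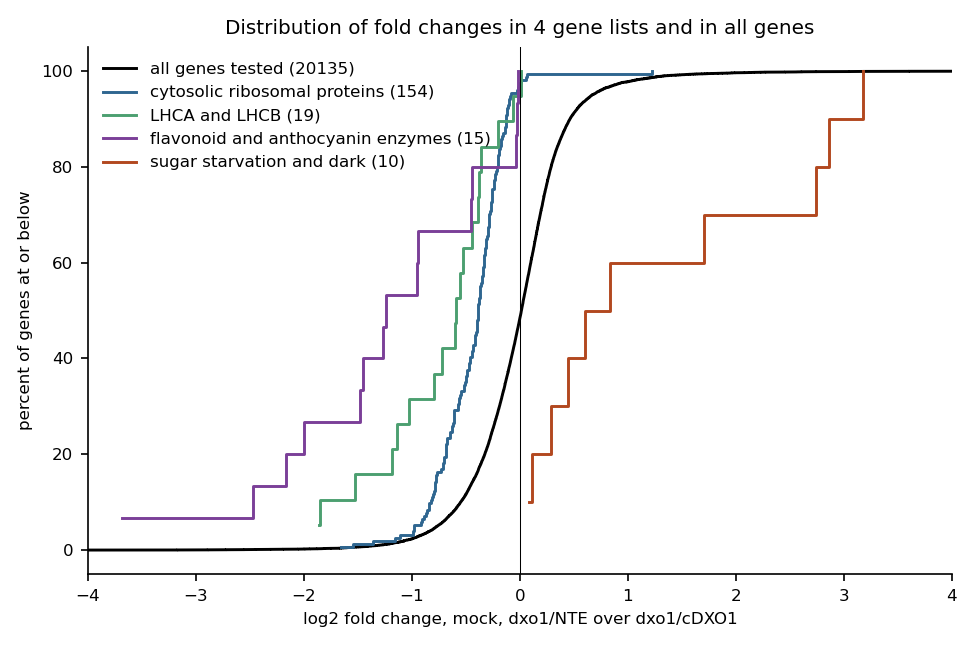
Cumulative percent of genes by log2 fold change of dxo1/NTE over dxo1/cDXO1 under mock, for all 20135 genes tested and for 4 gene lists. The ribosomal protein curve is shifted to the left with a median of -0.39 and is steep, the flavonoid curve has its median at -1.24, and the starvation curve lies to the right with a median of 0.72.

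Of 20 tested genes of the cap and decay machinery 3 were higher (15%, against 15.1% of all genes) and 2 lower (10%), with a median log2 fold change of 0.05. Without the *dxo1*/*cDXO1* library of replicate 1 only 1 was higher. *EIF4E* (AT4G18040), the cytosolic cap-binding initiation factor, had 103, 85.5 and 98.2 CPM in *dxo1*/*NTE* against 175, 162 and 165 CPM in *dxo1*/*cDXO1* (-0.92 ± 0.09, adjusted p = 7.1e-06), with 163 CPM in *dxo1* and 85.6 CPM in WT. *CBP20*, of the nuclear cap-binding complex, had 39.95, 37.3 and 44.0 CPM against 52.6, 51.6 and 54.4 CPM (-0.50 ± 0.08). The higher genes were AT3G09100, a capping enzyme (0.30), *VCS*, a scaffold of decapping (0.31), and *SAL1*, a phosphatase that removes an inhibitor of the XRN nucleases (0.24). The decapping genes *DCP1*, *DCP2* and *DCP5* and the nuclease genes *XRN2*, *XRN3* and *XRN4* were not called, with log2 fold changes between -0.10 and 0.18.

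Of 13 tested aquaporin genes of the *PIP* family, which move water across the plasma membrane, 8 were lower (61.5%, against 17.7% of all genes) and 1 higher (median -0.36), led by *PIP1;4* with 166, 187 and 207 CPM in *dxo1*/*NTE* against 376, 351 and 321 CPM in *dxo1*/*cDXO1*. Of 43 tested *SAUR* genes, auxin-induced growth regulators, 13 were lower (30.2%) and none higher (-0.49), and 8 were lower when the *dxo1*/*NTE* library of replicate 2 was left out. Of 29 *XTH* genes of cell wall remodelling 10 were lower (34.5%) and 1 higher (-0.13). Of 16 expansin genes 3 were higher (18.8%) and 1 lower (0.03), and 5 were higher without the *dxo1*/*cDXO1* library of replicate 3. Photosystem subunit genes had 11 lower (39.3%) and 1 higher call of 28 tested (-0.18); the higher one, *PSBP-2*, overlaps a neighbour, and with all 15 mock libraries in the fit 7 were lower. Heat shock genes had 13 lower (22.4%, near the share of all genes) and 5 higher calls of 58 (-0.06), and glutathione transferase genes 13 lower (37.1%) and 6 higher calls of 35 (-0.22).

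Calls among jasmonate, clock and touch genes are read here against the shares over all genes, 15.1% higher and 17.7% lower. Of 13 tested jasmonate and wounding genes 2 were higher (15.4%) and none lower, *LOX2* (AT3G45140), a lipoxygenase of jasmonate synthesis, at 168, 107 and 113 CPM against 60.0, 43.0 and 42.8 CPM, and *AOC1*, which lost its call without any 1 of 3 libraries. Without the *dxo1*/*NTE* library of replicate 2 the list had 4 higher calls. Of 10 tested *JAZ* repressors 1 was higher and 2 lower (20%). Among 15 clock genes 3 were higher (20%) and 4 lower (26.7%), with 1 higher without the *dxo1*/*NTE* or the *dxo1*/*cDXO1* library of replicate 2. *CCA1* (AT2G46830), a morning-phased transcription factor, had 4.04, 3.12 and 3.01 CPM in *dxo1*/*NTE* against 0.739, 1.03 and 0.663 CPM in *dxo1*/*cDXO1*, and *PRR7* was lower (-0.66) with overlapping libraries. Of 11 touch and rapid stress genes 4 were lower (36.4%) and none higher, led by *TCH4* (-0.84), whose libraries overlapped.

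Of 21 tested ABA-responsive genes 1 was higher (4.76%) and 5 were lower (23.8%, against 17.7% of all genes) under mock, with a median log2 fold change of -0.07, and 3 were lower without the *dxo1*/*cDXO1* library of replicate 1. *DOG1* (AT5G45830), the seed dormancy regulator, had 0.641, 0.416 and 0.0457 CPM in *dxo1*/*NTE* and 1.68, 2.06 and 1.99 CPM in *dxo1*/*cDXO1*. The ABA receptor gene *PYL4* had 175, 180 and 198 CPM against 226, 257 and 264 CPM (-0.54 ± 0.08, adjusted p = 0.00016). After ABA 24 genes of the list were tested, with 14 higher and 4 lower calls (median 0.25). Over all genes tested after ABA, 18.3% were higher and 20.2% lower. *COR15A* was lower under mock (-1.02) and higher after ABA (0.38), and *ERD10* was likewise lower (-0.41) and then higher (0.21). Neither gene was among the 31 called in the test of the difference between treatments. The mock call of *ERD10* was lost when any of 4 single libraries was left out. That of *COR15A* was lost without the *dxo1*/*cDXO1* library of replicate 1.

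Some genes differed between the lines in a way that WT and *dxo1* did not. Of the 6560 mock calls tested in both contrasts, 92 (1.4%) were called in the opposite direction in WT against *dxo1*. Over all genes tested in both, called under mock or not, that share was 2.74%. Of the 92 genes, 37 were higher in *dxo1*/*NTE* and 55 lower. Among these, 5 of the higher and 1 of the lower genes differed by more than 2-fold in both contrasts. The count was 268 without the WT library of replicate 1, 29, 34 and 43 without the *dxo1* libraries of replicates 1, 2 and 3, and 54 without the *dxo1*/*cDXO1* library of replicate 1 or 2. *LCR67* (AT1G75830), the defensin PDF1.1, had 3.90, 2.86 and 3.20 CPM in *dxo1*/*NTE* against 0.296, 0.344 and 0.868 CPM in *dxo1*/*cDXO1*, with a mean of 2.57 CPM in *dxo1* and 0.723 CPM in WT. *RLP23* (AT2G32680), a receptor of microbial peptides, had 3.80, 3.28 and 3.47 CPM against 1.18, 1.28 and 1.43 CPM, with 3.31 CPM in *dxo1* and 0.613 CPM in WT. *PNP-A*, a secreted peptide, and *RLP38*, a receptor-like protein, showed the same order, the call of *RLP38* being lost without the *dxo1*/*cDXO1* library of replicate 1 or 3. For these 4 genes, named because their directions were opposite, *dxo1*/*NTE* was near the mutant and *dxo1*/*cDXO1* on the side of WT. At *RLP23*, *dxo1*/*cDXO1* lay between WT and the mutant. On the lower side *QQS* (AT3G30720), an orphan gene of starch and protein allocation, had 1.18, 0.729 and 0.913 CPM against 2.22, 2.31 and 2.14 CPM, with 1.14 CPM in *dxo1* and 3.52 CPM in WT. *CA2*, a carbonic anhydrase, AT5G38510, a rhomboid protease, and AT4G12917, an RNA of unknown function, were lower by 0.68, 0.68 and 1.04 on the log2 scale.

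Genes set apart in 1 line across all 30 libraries of the series were few. Only the 6601 genes called under mock were searched, so that a share over all genes tested is not available. Among them, all 6 *dxo1*/*NTE* libraries lay above the other 24 at 50 genes and below them at 8. All 6 *dxo1*/*cDXO1* libraries lay above the others at 43 and below them at 24. The gaps ran down to 0.0007 on the log2(CPM + 1) scale. Apart from *AUF1*, no gap exceeded 1 on the log2(CPM + 1) scale. AT3G44006, of unknown function, came next: it had 2.02, 1.82 and 1.96 CPM in *dxo1*/*NTE* against 0.493, 0.245 and 0.204 CPM in *dxo1*/*cDXO1*, with 0.0162 CPM in *dxo1* and 0 CPM in WT. *RLP33* (AT3G05660), a receptor-like protein, had 17.4, 17.2 and 21.0 CPM against 5.12, 7.56 and 9.85 CPM, with 9.09 CPM in *dxo1* and 8.83 CPM in WT. In *dxo1*/*cDXO1*, AT5G38980, of unknown function, stood above all others, with 35.6, 32.4 and 34.1 CPM in *dxo1*/*NTE* against 153, 147 and 138 CPM in *dxo1*/*cDXO1* (-2.21 ± 0.08, adjusted p = 1.1e-08, the smallest in the comparison). *BGLU18* (AT1G52400), a glucosidase that releases ABA from its conjugate, was set apart in both lines, below all others in *dxo1*/*cDXO1* and above all others in *dxo1*/*NTE*, with 127, 112 and 114 CPM in *dxo1*/*NTE* against 46.5, 41.2 and 49.1 CPM in *dxo1*/*cDXO1*.

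The response to ABA was compared between the lines by a test of the difference between the contrasts, which called 31 of 20704 genes (0.150%), 18 with a more positive and 13 with a more negative contrast after ABA. The same comparison gave 88 calls with DESeq2, 82 without the low-count filter and 95 with a replicate block, and smaller differences may have been missed. At 3 genes named here after their values were seen, AT3G02480, encoding a late embryogenesis abundant protein, had 49.6, 51.2 and 78.7 CPM in *dxo1*/*NTE* and 48.4, 52.0 and 55.2 CPM in *dxo1*/*cDXO1* after ABA, and 2.27, 1.46 and 1.92 CPM against 10.98, 8.69 and 7.04 CPM under mock (adjusted p of the difference 0.00095). *NAC032*, a stress-induced transcription factor, and *PYR1*, an ABA receptor, were the others, with differences of 0.98 and -0.72. The number of such genes depended on single libraries, from 13 without the *dxo1*/*cDXO1* ABA library of replicate 1 to 146 without the *dxo1*/*NTE* mock library of replicate 1.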

How the data were processed

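RNA-seq of 30 libraries of *Arabidopsis* seedlings was deposited as 1 table of raw counts per gene. Per the labels and the study's methods, the authors prepared poly(A) libraries, checked reads with FastQC 0.11.8, aligned them to TAIR10 with HISAT2 2.2.1 and counted them with featureCounts of Subread 2.0.8; strand setting, treatment of multi-mapping reads and annotation version are not given in the sources used here. From the deposited counts, edgeR 4.0.16 (R 4.3.3) quasi-likelihood tests with TMM scaling were run on the 6 libraries of each comparison, after filterByExpr with a minimum count of 10 (20135 of 32833 genes), with Benjamini-Hochberg adjustment. The difference between treatments was an interaction term over 12 libraries. CPM are counts scaled to a common library total. The tests were checked on simulated data. Alternatives were DESeq2 1.42.0, RLE size factors, no low-count filter, all 15 mock libraries in 1 fit, a replicate block and leaving out each library.

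Named genes had a mean of at least 1 CPM, an adjusted p under 0.05 and no overlap between the lines: the 10 largest changes and the next 4 smallest p in each direction, and the 4 largest of each kind opposite to WT against *dxo1* or specific to a line. From each list up to 4 called members with the largest change were added. Other members given with values are called or uncalled members of a list, named after their values were seen. The comparison, the lists and this rule were chosen with earlier results of these data known. Gene names and sequences came from RefSeq, whose TAIR10.1 exon lengths equal the deposited gene lengths for 99.5% of 32548 matched genes. The sequence of 1 promoter is not reported here.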

Additional observations from a re-analysis of the deposited data

Results flagged for a closer look

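The difference between *dxo1*/*NTE* and *dxo1*/*cDXO1* was itself different after ABA and under mock at 31 genes (adjusted p under 0.05 for the interaction of line and treatment, edgeR), against 1779 at an unadjusted p under 0.05. Of the genes that met the naming rule, 4 were in this group. *MRN1* was higher in *dxo1*/*NTE* in both treatments, by a log2 fold change of 1.87 after ABA and 3.46 under mock, a difference of -1.57. The *SAUR*-like gene AT5G50760 was lower under mock (-1.36) and not called after ABA (-0.25), a difference of 1.13. *EXPA10*, an expansin, stood at -0.26 after ABA and 0.38 under mock, a difference of -0.62, and *PIP1A*, an aquaporin, at -0.24 after ABA and -0.72 under mock, a difference of 0.50.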

How the results depend on the processing

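With DESeq2, RLE size factors, no low-count filter, all 15 mock libraries in 1 fit or a replicate block, the mock comparison gave 5318 to 6851 called genes and 895 to 1132 DEGs, and leaving out 1 library gave 4922 to 6122 called genes and 904 to 1076 DEGs. No named gene that was called changed direction. The uncalled *DXO1* went from a log2 fold change of 0.05 to -0.004 without the *dxo1*/*NTE* library of replicate 2. Of 134 named genes, 17 lost the call with all 15 mock libraries in the fit, 4 with DESeq2 and 19 without at least 1 of the libraries. Called genes after ABA ran from 6249 to 7619 without 1 library and from 2281 to 8854 between WT and *dxo1*. Shares of mock calls with the same direction ran from 96.1% to 98.3% after ABA and from 84.3% to 88.9% in WT against *dxo1*. The difference between treatments had 88 calls with DESeq2, 82 without the filter, 95 with the replicate block and 13 to 146 without 1 library; the cause was not tested. Same-numbered libraries of the lines shared little (correlations of 0.10, 0.03 and 0.07 under mock). The highest correlations with a library of another number were lower, at -0.003, 0.02 and -0.02. Whether the numbers pair the libraries cannot be told from values this small. The replicate block gave 6851 called genes under mock.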
